A study of Mus musculus with 2 samples.

Results

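The regulators of G protein signalling (RGS) described here are 9 genes, Rgs4, Rgs6, Rgs7, Rgs8, Rgs9, Rgs12, Rgs14, Rgs17 and Rgs20, out of 33696 genes counted in single nuclei of the mouse hippocampus. They were chosen by gene symbol from the feature tables, with earlier values of the same comparison known, so every value of that comparison is given as a description and none as a test. Cic, the gene of the transcriptional repressor Capicua, carried loxP sites on both alleles (Cic flox/flox) in all mice, and this is the only genotype the labels give for the control library. The other library, labelled knockout (KO), carried Emx1-Cre as well, a recombinase driven from the Emx1 locus, which is active in the lineage of cortical and hippocampal excitatory neurons and much of their glia. Both were taken at postnatal day 19, and each is a pool of 3 littermates (2 male, 1 female) that gave 1 hippocampus each. With 1 library per genotype there is no replicate error, no p-value is given, and mouse, pooling and genotype cannot be told apart.

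RGS proteins shorten G protein signals. A receptor loads a Gα subunit with GTP, the Gα and Gβγ parts act on enzymes and channels, and an RGS domain speeds up the hydrolysis of that GTP, which ends the signal. Rgs4 and Rgs8 belong to the small R4 group. Rgs6, Rgs7 and Rgs9 form the R7 group, which pairs with the Gβ5 subunit encoded by Gnb5. Rgs12 and Rgs14 are larger scaffolds of the R12 group that also bind Ras-family proteins and inactive Gα, and Rgs14 is known as a brake on synaptic plasticity in CA2 neurons. Rgs17 and Rgs20 belong to the RZ group, which acts on Gαz and Gαi.

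The matrices held 25907 barcodes and 314453640 unique molecular identifiers (UMIs, which count RNA molecules) in the control and 23207 barcodes and 252995761 UMIs in KO. The libraries had 175 barcode sequences in common. After removal of low-quality nuclei and doublets, 21837 control nuclei (median 9783 UMIs) and 20529 KO nuclei (median 8765 UMIs) remained. Most of them fell into 17 classes of at least 100 nuclei per library that could be named from marker genes, with the ending "-like". Unnamed clusters held 12.7% of control and 14.7% of KO nuclei. Named clusters with fewer than 100 nuclei in a library, such as mossy cell-like nuclei (72 and 112), were left out of the classes. Cic itself was not lower in KO, at 9.04 CPM (a gene's UMIs per 1000000 UMIs of the class and library) in control and 12.3 CPM in KO among dentate granule-like nuclei. A sum over the whole gene does not show whether floxed exons were lost, so that value checks nothing. Etv4, a gene known to be repressed by Capicua, was at 57 UMIs in control and 4267 UMIs in KO in the same class. KO below means the library labelled knockout.

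The size rule called a gene higher or lower at a 2-fold or larger difference, provided that the library with more of it held 50 UMIs or more and reached 10 CPM. Of the 153 pairs of a member and a class, 86 passed these minimums. Of those 86 pairs, 8 were higher and 1 was lower in KO. Over all genes and the same 17 classes, 1.1% of the pairs that passed were higher and 0.408% were lower. The members were picked from this contrast, so nothing is read from the difference. Rgs7 passed the minimums in all 17 classes, Rgs6 and Rgs17 in 14, Rgs20 in 13, Rgs9 in 11, Rgs12 in 9, Rgs8 in 6, Rgs14 in 2 and Rgs4 in none. Just inside the 2-fold line lay Rgs6 in subicular excitatory-like nuclei and Rgs7 in oligodendrocyte-like nuclei, each at a log2 ratio of KO over control of 1.04. Just outside the line lay Rgs6 in cycling progenitor-like nuclei at -0.92 (cluster c19 at -1.21 and cluster c32, with 2 and 18 UMIs, at 3.02) and Rgs20 in deep-layer excitatory-like nuclei at 0.86. Rgs20 in dentate granule-like nuclei, at 9.9 CPM in KO, stayed just under the minimum of 10 CPM.

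**Figure D1:**
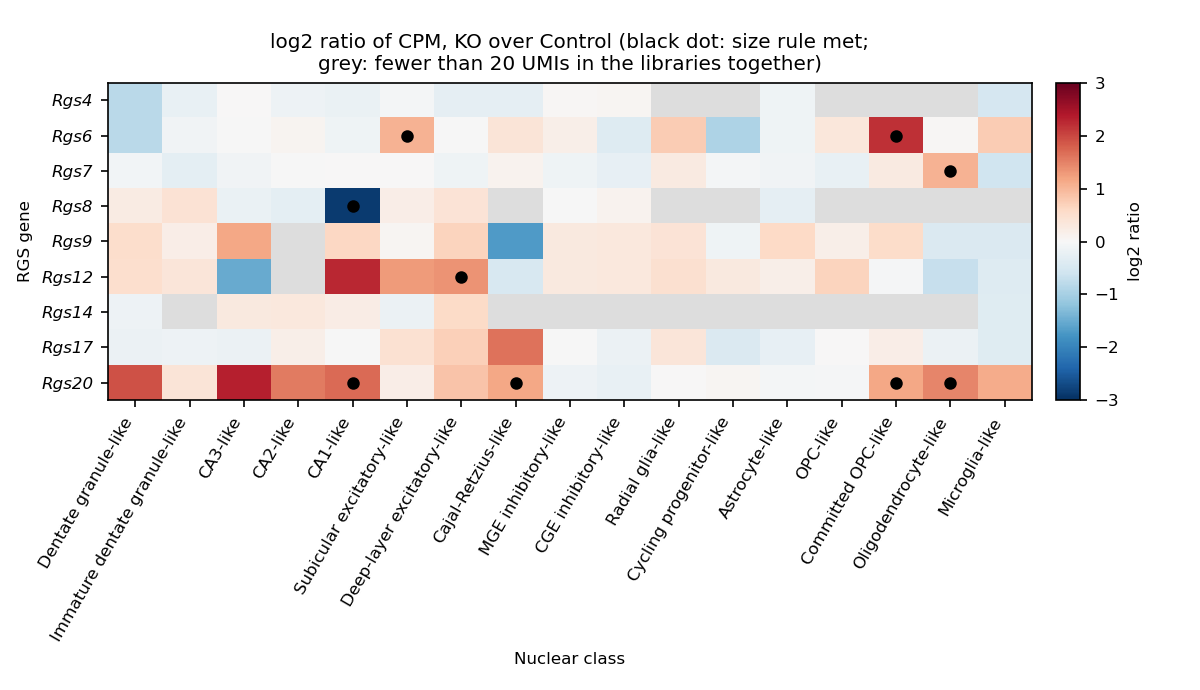
Log2 ratio of CPM, KO over control, for the 9 RGS genes (vertical) in 17 nuclear classes (horizontal), with 1 library per group. Red is higher and blue lower in KO, a black dot marks the 9 pairs that met the size rule, and pairs with fewer than 20 UMIs in the libraries together are grey.

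Promoter windows are shown for Rgs8 and Rgs12, the members with the single lower call and with ratios of opposite sign between hippocampal fields. The windows come from RefSeq on GRCm38.p6, which is not the mm39 build of the counts, and hold 250 bases before to 50 after each annotated start. Of the 9 members, 7 had 10 windows between them, 3 for Rgs8 and 2 for Rgs12. Rgs14 and Rgs20 were not matched. All are printed 5′ to 3′ on the gene's strand, and no base is in capitals because none matched a motif searched.
Rgs8, chr1:153652787-153653086, plus strand: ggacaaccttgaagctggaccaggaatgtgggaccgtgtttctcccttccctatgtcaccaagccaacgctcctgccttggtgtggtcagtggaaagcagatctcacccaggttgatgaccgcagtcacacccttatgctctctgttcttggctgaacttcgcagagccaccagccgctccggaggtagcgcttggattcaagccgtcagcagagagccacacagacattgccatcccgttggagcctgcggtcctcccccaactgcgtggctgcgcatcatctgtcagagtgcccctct
Rgs8, chr1:153665024-153665323, plus strand: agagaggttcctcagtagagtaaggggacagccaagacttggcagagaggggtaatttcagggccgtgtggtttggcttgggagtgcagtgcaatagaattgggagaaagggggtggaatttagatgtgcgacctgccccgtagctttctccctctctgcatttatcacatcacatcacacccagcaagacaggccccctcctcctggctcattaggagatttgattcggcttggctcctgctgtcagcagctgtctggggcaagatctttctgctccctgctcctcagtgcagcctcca
Rgs8, chr1:153665423-153665722, plus strand: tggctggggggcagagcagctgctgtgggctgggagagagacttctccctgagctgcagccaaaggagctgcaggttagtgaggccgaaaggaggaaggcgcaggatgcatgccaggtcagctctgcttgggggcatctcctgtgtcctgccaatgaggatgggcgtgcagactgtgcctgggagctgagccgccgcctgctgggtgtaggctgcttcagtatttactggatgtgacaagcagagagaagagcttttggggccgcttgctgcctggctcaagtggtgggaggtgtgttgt
Rgs12, chr5:34949198-34949497, plus strand: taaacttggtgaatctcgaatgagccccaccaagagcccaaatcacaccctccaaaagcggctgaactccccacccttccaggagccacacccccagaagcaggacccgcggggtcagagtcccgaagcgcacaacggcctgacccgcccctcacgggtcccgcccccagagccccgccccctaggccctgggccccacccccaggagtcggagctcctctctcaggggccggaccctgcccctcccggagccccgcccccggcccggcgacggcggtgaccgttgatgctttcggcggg
Rgs12, chr5:34998828-34999127, plus strand: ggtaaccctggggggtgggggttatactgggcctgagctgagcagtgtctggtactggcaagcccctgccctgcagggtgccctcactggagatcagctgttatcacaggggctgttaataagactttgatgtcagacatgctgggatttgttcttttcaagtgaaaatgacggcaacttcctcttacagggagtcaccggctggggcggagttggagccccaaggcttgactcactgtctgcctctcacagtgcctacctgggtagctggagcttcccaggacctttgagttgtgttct

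The windows were searched on both strands for the octamers bound by Capicua, TGAATGAA, TGAATGGA, TCAATGAA and TCAATGGA. None of the 10 member windows held any of them, against 1260 of 32851 windows of the same length over all genes (3.84%). The ETS-type letters CCGGAAG or CAGGAAG, of the kind bound by ETV4 and ETV5, were added to the search after the values had been seen. They were in none of the 10 windows either, against 6877 of all windows (20.9%). This says only that these letters are not in these windows.

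Each member had its own order of levels across classes. Rgs20 was highest in radial glia-like nuclei, at 2231 CPM in control and 2250.3 CPM in KO, and next in astrocyte-like nuclei, at 1301 and 1248 CPM. Rgs6 was highest in immature dentate granule-like nuclei, at 2087 and 1942 CPM. Both genes kept these classes at the top in both libraries, with Poisson intervals that did not overlap the next class. Rgs7 was highest in dentate granule-like nuclei, at 1054 CPM in control and 995 CPM in KO, followed by CA3-like nuclei at 969 and 896 CPM. Rgs12 and Rgs8 were both highest in CGE inhibitory-like nuclei, interneurons of the caudal ganglionic eminence lineage. There Rgs12 was at 181 and 227 CPM and Rgs8 at 48.0 and 51.7 CPM. Rgs14 was highest in CA2-like nuclei, at 21.9 CPM in control and 27.1 CPM in KO, above CA1-like nuclei at 9.51 and 11.1 CPM. Rgs9 was highest in oligodendrocyte precursor-like nuclei, at 86.7 and 98.1 CPM. Rgs17 was highest in subicular excitatory-like nuclei, at 156 and 215 CPM, but its interval overlapped that of the next class, MGE inhibitory-like nuclei at 148 CPM in control and deep-layer excitatory-like nuclei at 201 CPM in KO. Rgs4 was highest in Cajal-Retzius-like nuclei, at 23.9 CPM from 25 UMIs in control and 19.96 CPM from 26 UMIs in KO, where the interval overlapped that of CA2-like nuclei at 9.32 CPM. CPM were compared between classes within a gene and not between genes, because they are not scaled to gene length.

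**Figure D2:**
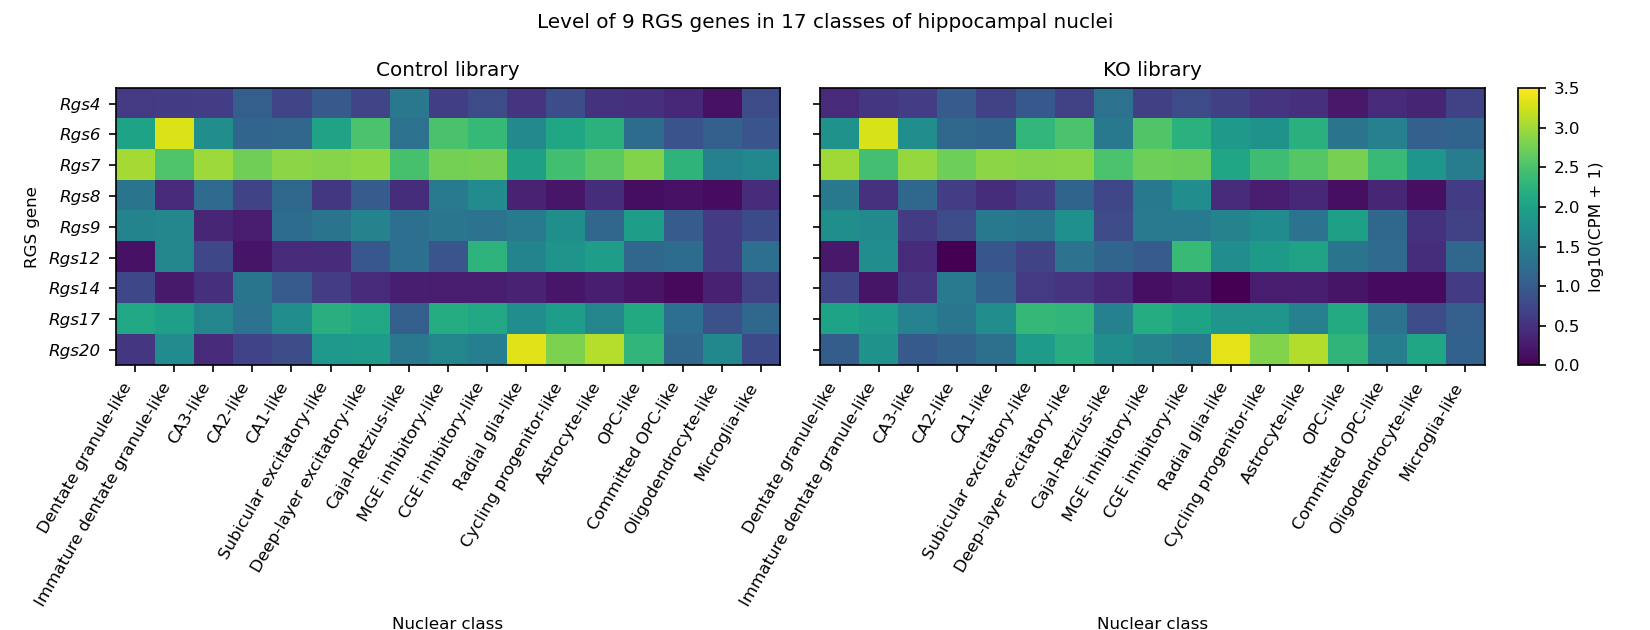
Level of each RGS gene as log10(CPM + 1) in 17 nuclear classes, control on the left and KO on the right. Rgs6 is brightest in immature dentate granule-like nuclei and Rgs20 in radial glia-like and astrocyte-like nuclei in both libraries.

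Among the R4 members, Rgs8 was lower in KO in CA1-like nuclei. Rgs8 is a brain RGS protein that speeds up the gating of G protein-coupled potassium channels. It was at 13.9 CPM (454 UMIs) in control and at 1.89 CPM (41 UMIs) in KO, a log2 ratio of -2.87 with an exact interval of -3.38 to -2.42. Intervals in this text are at 95% and cover counting error only. In CA1-like nuclei 1.04% of all tested genes were at least 2-fold lower. A UMI of Rgs8 was found in 21.0% of 1724 control nuclei (19.1 to 23.0%, Clopper-Pearson) and in 2.64% of 1325 KO nuclei (1.85 to 3.65%). In microglia-like nuclei, which should lack the gene, the share was 0.402% in control and 0.474% in KO at median depths of 2130 and 1719.5 UMIs, against 18020 and 15946 UMIs in CA1-like nuclei. For thinning, nuclei under 2000 UMIs were left out and the others were reduced at random to 2000 UMIs. Rgs8 was then found in 2.90% of control and 0.302% of KO CA1-like nuclei. The thinned share in microglia-like nuclei was 0.363% and 0.387%, so the KO share in CA1-like nuclei was near that of microglia-like nuclei. Microglia-like nuclei were not the class with the least Rgs8. In KO they were at 3.00 CPM (1.30 to 5.92, Poisson). Oligodendrocyte-like nuclei were at 0.395 CPM (0.0814 to 1.15), below the 1.89 CPM (1.36 to 2.56) of CA1-like nuclei. Many microglia-like nuclei had under 2000 UMIs, so all thinned shares of this class cover only its deeper nuclei.

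Nuclei of the pools were split by sex with Xist and Y-linked UMIs. Of the control nuclei 29.6% were assigned female and 43.5% male, and of the KO nuclei 30.6% and 44.4%. The remaining nuclei were assigned no sex and are in neither part. Rgs8 in CA1-like nuclei was lower in KO in both sexes. Female nuclei gave -2.85 and male nuclei -2.57. The other classes with Rgs8 above the minimums differed by under 2-fold. In CA3-like nuclei Rgs8 was at 15.9 CPM in control and 13.9 CPM in KO, in MGE inhibitory-like nuclei at 25.8 and 25.4 CPM, and in dentate granule-like nuclei at 21.1 and 25.2 CPM. In deep-layer excitatory-like nuclei it was at 9.40 and 12.4 CPM. Among clusters that could not be named, Rgs8 was higher in KO in cluster c16, led by Npsr1 and Tecta, at 12.1 and 28.7 CPM. It was also higher in cluster c10, led by Rasef and Glra2, at 9.08 and 18.6 CPM. Of all tested genes, 2.53% in cluster c16 and 0.868% in cluster c10 were at least 2-fold higher.

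Other markers differed within the CA1-like class, and their part in the results for this class was not tested. The summed level of 7 CA1 markers was 979 CPM in control and 842 CPM in KO, with 4 of 7 higher in KO. The 6 subicular markers summed to 11.7 and 77.8 CPM, with 4 of 6 higher, and the 7 immature granule markers to 46.0 and 113 CPM, with 7 of 7 higher. No marker of these 3 lists was at 0 in either library. At a Leiden resolution of 2 the CA1-like class split largely by library, into cluster c12 with 1169 control and 12 KO nuclei and cluster c8 with 557 and 1334 nuclei (numbers of that clustering, which also uses genes that differ between the libraries). Values inside the latter were computed after the split was seen. There Rgs8 was at 9.77 CPM in control and 1.92 CPM in KO, a log2 ratio of -2.34 (-2.90 to -1.82). Rgs12 was at 2.35 and 7.69 CPM (1.68, 1.11 to 2.36) and Rgs20 at 4.70 and 18.0 CPM (1.92, 1.51 to 2.38). Rgs6, at 13.5 and 12.3 CPM in the whole class, was at 31.8 and 12.3 CPM there (-1.37, -1.61 to -1.14). Rgs8 itself was at 2.70 CPM in control and 3.08 CPM in KO in subicular excitatory-like nuclei.

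Rgs4, the other R4 member, was low in every class. Among dentate granule-like nuclei Rgs4 had 156 UMIs (2.89 CPM) in control and 62 UMIs (1.63 CPM) in KO, a log2 ratio of -0.82 (-1.27 to -0.39), well under 10 CPM. In the other 16 named classes the interval of its ratio included 0.

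Rgs6, of the R7 group, was called higher in 2 named classes. In committed oligodendrocyte precursor-like nuclei, cells between precursor and myelinating stage, Rgs6 was at 6.95 CPM (29 UMIs) in control and 32.0 CPM (119 UMIs) in KO. The log2 ratio was 2.18 (1.61 to 2.84), and 1.09% of all tested genes were at least 2-fold higher in this class. These UMIs lay in 12 of 536 control nuclei (2.24%) and 36 of 529 KO nuclei (6.81%), and after thinning the shares were 0.936% and 3.63%. In microglia-like nuclei Rgs6 was at 7.26 and 12.4 CPM, with a UMI in 1.54% and 1.15% of nuclei and after thinning in 1.33% and 1.35%, so the control level here was near that of microglia-like nuclei. The difference lay in 1 of its 2 clusters. Cluster c17 went from 1.83 CPM in control to 45.6 CPM in KO, and cluster c24 was at 12.6 and 15.1 CPM. With called doublets kept, the class ratio was 0.77, under 2-fold. The summed immature granule markers, whose class holds the most Rgs6, were 121 CPM in control and 122 CPM in KO there.

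In subicular excitatory-like nuclei Rgs6 was at 102 CPM (1624 UMIs) in control and 210 CPM (2657 UMIs) in KO, a log2 ratio of 1.04 (0.95 to 1.13). In this class 2% of all tested genes were at least 2-fold higher. A UMI was found in 48.7% of 645 control nuclei and 75.3% of 580 KO nuclei. The clusters of this class went opposite ways. In cluster c12, with 541 control and 487 KO nuclei, Rgs6 was at 75.9 and 219 CPM. In cluster c28, with 104 and 93 nuclei, it was at 353 and 132 CPM. The log2 ratio was 0.69 when each nucleus counted equally and 0.45 after thinning. It was 0.94 with called doublets kept and 0.43 when nuclei were clustered without the changed genes and the Rgs genes.

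In dentate granule-like nuclei, the source of the mossy fibres, Rgs6 was at 105 CPM (5650 UMIs) in control and 59.96 CPM (2277 UMIs) in KO, a log2 ratio of -0.80 (-0.87 to -0.73), inside 2-fold. Of all tested genes, 1.08% were at least 2-fold lower in this class. Different clusters held most of the class in each library: cluster c3 held 78.2% of the control nuclei and cluster c1 95.8% of the KO nuclei. Within cluster c1 Rgs6 was at 266 CPM in control and 62.0 CPM in KO, and within cluster c3 at 66.1 and 16.4 CPM. The log2 ratios inside these clusters were -2.10 and -1.98, so the gap inside either cluster was larger than in the class as a whole. These clusters were built on genes that differ between the libraries. Female granule nuclei gave -1.35 and male nuclei -0.54. The 7 immature granule markers summed to 88.8 CPM in control and 146 CPM in KO in this class, all 7 higher, and the 7 granule markers to 3947 and 2904 CPM, with 2 of 7 higher; their part was not tested. In immature dentate granule-like nuclei themselves the ratio of Rgs6 was -0.10 (-0.13 to -0.07). Rgs6 was also lower in KO in 2 unnamed clusters, c22, led by C1qtnf7 and Cpa6, at 1080.2 and 498 CPM, and c20, led by Odad2 and Col6a1, at 43.8 and 15.5 CPM. Of all tested genes, 0.448% were lower in cluster c22 and 0.278% in cluster c20. At a Leiden resolution of 2 the leading genes of cluster c22 headed separate clusters. The one led by Cpa6 and Unc13c held 84 control and 239 KO nuclei, and the one led by C1qtnf7 held 96 and 110. The make-up of cluster c22 may thus differ between the libraries, and its part in the values of that cluster was not tested.

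**Figure D3:**
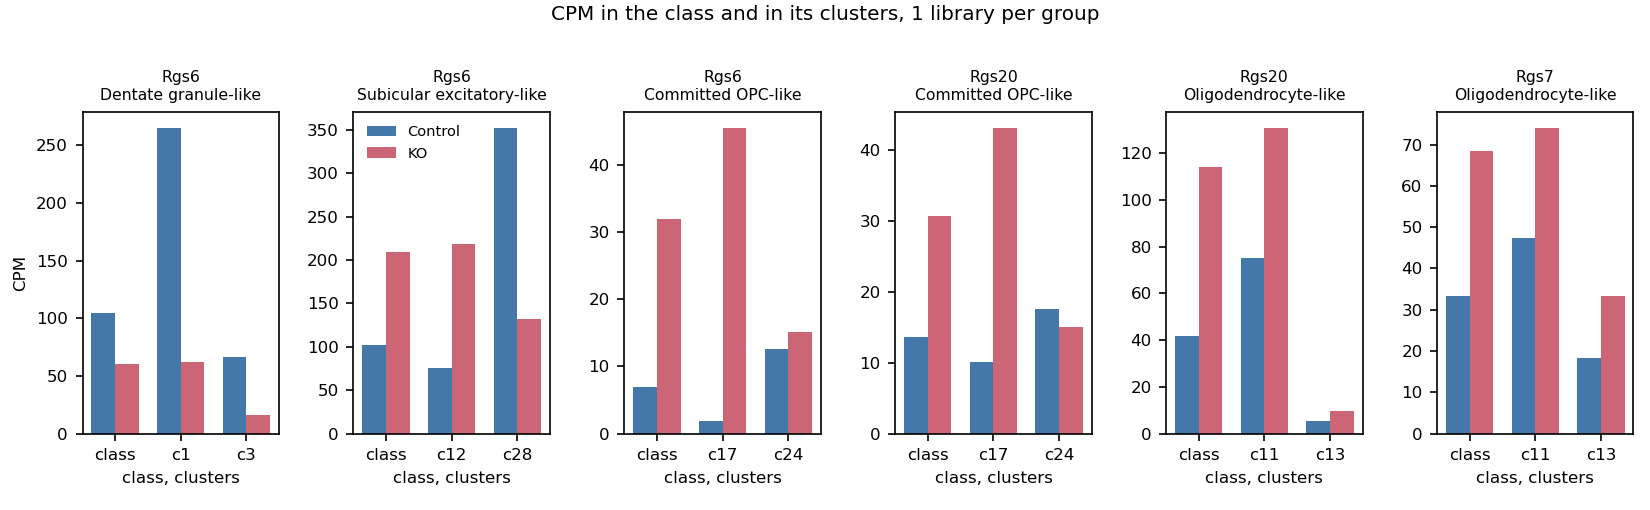
CPM of Rgs6, Rgs20 and Rgs7 in a class and in each of its clusters, control in blue and KO in red, from 1 library per group. Rgs6 in granule-like nuclei was lower in KO in cluster c1 and cluster c3 by more than in the class, and in subicular excitatory-like nuclei cluster c12 and cluster c28 went opposite ways.

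Rgs7, a synaptic R7 member that regulates GABA-B receptor signalling to potassium channels, differed by under 2-fold in most classes. The counting interval of its ratio lay below 0 in 9 of 17 classes and above 0 in 2. Its log2 ratio lay between -0.60 and 0.28 in 16 of 17 classes. The exception was oligodendrocyte-like nuclei, where it was at 33.3 CPM (307 UMIs) in control and 68.4 CPM (520 UMIs) in KO, a log2 ratio of 1.04 (0.83 to 1.25). There 2.23% of all tested genes were at least 2-fold higher. A UMI was found in 13.0% of 1116 control nuclei and 27.8% of 877 KO nuclei, and after thinning in 4.71% and 11.1%. Microglia-like nuclei, at 42.7 CPM of Rgs7 in control and 28.2 CPM in KO, had a UMI in 7.51% and 4.81% of nuclei and after thinning in 5.93% and 4.06%. The Poisson interval of the control level in oligodendrocyte-like nuclei (29.7 to 37.3 CPM) thus overlapped that of microglia-like nuclei (35.9 to 50.3 CPM). Cluster c11 held 40.6% of the control and 79.2% of the KO nuclei of this class, and Rgs7 was higher there than in cluster c13 in both libraries. Inside cluster c11 it was at 47.4 and 74.1 CPM, and inside cluster c13 at 18.3 and 33.2 CPM, log2 ratios of 0.64 and 0.87 that stay under 2-fold. With called doublets kept, the ratio turned to -0.18.

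Rgs9, the R7 member best known from striatum and photoreceptors, met the size rule in no named class. In dentate granule-like nuclei it was at 37.3 CPM in control and 54.1 CPM in KO, a log2 ratio of 0.54 (0.45 to 0.63). In CA1-like nuclei it was at 16.4 and 25.4 CPM (0.63, 0.45 to 0.80), and in deep-layer excitatory-like nuclei at 35.6 and 56.4 CPM (0.66, 0.49 to 0.84). In astrocyte-like nuclei it was at 13.4 and 20.5 CPM. The ratio in cycling progenitor-like nuclei was -0.13. In CA2-like nuclei Rgs9 had 3 UMIs in control and 13 in KO (2.52, 0.83 to 5.14), under the minimums. In the unnamed cluster c22 Rgs9 was higher, at 11.5 CPM in control and 29.2 CPM in KO, where 1.87% of all tested genes were higher.

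Rgs12, of the R12 group, differed in direction between hippocampal fields. In deep-layer excitatory-like nuclei it was at 7.91 CPM (96 UMIs) in control and 20.4 CPM (238 UMIs) in KO, a log2 ratio of 1.36 (1.02 to 1.72), in a class where 0.926% of all tested genes were at least 2-fold higher. Cluster c18 carried this, at 14.7 and 36.8 CPM, while cluster c21 was at 1.34 and 2.20 CPM. Female nuclei gave 1.67 and male nuclei 0.69, and thinned nuclei 0.97. In CA1-like nuclei Rgs12 was at 1.59 CPM (52 UMIs) in control and 7.74 CPM (168 UMIs) in KO, a log2 ratio of 2.27 (1.82 to 2.76) that falls under the 10 CPM minimum. The share of CA1-like nuclei with a UMI was 2.67% in control and 10.7% in KO, against 3.49% and 2.44% in microglia-like nuclei. After thinning it was 0.29% and 1.36%, both under the 3.14% and 3.48% of thinned microglia-like nuclei, which hold more Rgs12 per UMI. In CA3-like nuclei it went the other way, at 4.66 CPM (111 UMIs) in control and 1.60 CPM (31 UMIs) in KO, a log2 ratio of -1.52 (-2.16 to -0.95). Female and male nuclei had the same sign as the class in both fields, with 3.34 and 1.99 in CA1-like and -1.08 and -1.75 in CA3-like nuclei. In its most abundant class, CGE inhibitory-like nuclei, the ratio was 0.32 (0.21 to 0.43).

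Rgs14 passed the minimums in CA2-like and CA1-like nuclei. In CA2-like nuclei a UMI was found in 40.4% of 146 control nuclei and 40.0% of 115 KO nuclei, and the log2 ratio of CPM was 0.31 (-0.19 to 0.80). In CA1-like nuclei the ratio was 0.22 (-0.03 to 0.47). Both counting intervals included 0.

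Of the RZ group, Rgs17 met the size rule in no class. Among the 14 classes that passed, 6 ratios were above 0 and 8 below, with a median of -0.003. In cycling progenitor-like nuclei Rgs17 was at 87.3 CPM in control and 64.9 CPM in KO, and male nuclei alone were called lower there. The largest ratios above 0 among classes that passed were in cortical and subicular excitatory nuclei. In deep-layer excitatory-like nuclei Rgs17 was at 122 CPM (1485 UMIs) in control and 201 CPM (2353 UMIs) in KO, a log2 ratio of 0.72 (0.62 to 0.81). Female nuclei gave 0.69 and male nuclei 0.63, and cluster c18 and cluster c21 gave 0.86 and 0.59. In subicular excitatory-like nuclei the ratio was 0.46 (0.38 to 0.54). In CA1-like nuclei Rgs17 was even, at 50.6 and 50.5 CPM. In Cajal-Retzius-like nuclei it had 11 UMIs in control and 44 UMIs in KO, too few for the size rule.

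Rgs20 met the size rule in 4 named classes, the most of any member, all higher in KO. In CA1-like nuclei it was at 5.70 CPM (186 UMIs) in control and 18.6 CPM (403 UMIs) in KO, a log2 ratio of 1.70 (1.45 to 1.96), where 3.11% of all tested genes were higher. In oligodendrocyte-like nuclei it was at 41.6 CPM (383 UMIs) and 114 CPM (867 UMIs), a ratio of 1.45 (1.28 to 1.63). These were the best counted of the 4. In Cajal-Retzius-like nuclei, early-born neurons of the marginal zone, Rgs20 was at 23.9 CPM (25 UMIs) and 53.7 CPM (70 UMIs), a ratio of 1.15, 0.49 to 1.89, where 2.75% of genes were higher. In committed oligodendrocyte precursor-like nuclei it was at 13.7 CPM (57 UMIs) and 30.7 CPM (114 UMIs), a ratio of 1.16 (0.69 to 1.65). With called doublets kept, the ratio was 0.79 in CA1-like and 0.90 in oligodendrocyte-like nuclei, both under 2-fold. In Cajal-Retzius-like nuclei it was 0.58 after thinning.

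CA3-like, dentate granule-like and CA2-like nuclei had the same sign but did not pass the minimums. In CA3-like nuclei Rgs20 was at 1.72 CPM (41 UMIs) in control and 8.69 CPM (168 UMIs) in KO, a log2 ratio of 2.32 (1.84 to 2.87). Dentate granule-like nuclei had 2.63 CPM (142 UMIs) and 9.90 CPM (376 UMIs), a ratio of 1.91 (1.63 to 2.20), and inside cluster c1 and cluster c3 the ratios were 1.19 and 1.17. In CA2-like nuclei, under the 50 UMI minimum, it had 14 and 28 UMIs, and the sexes disagreed there, with 1 UMI against 13 in female nuclei and 7 against 3 in male nuclei. Unnamed cluster c7, led by Dcn and Tnni3k, had 6.20 CPM in control and 36.0 CPM in KO, and cluster c20 had 7.15 and 36.3 CPM. In cluster c22 Rgs20 was at 11.3 and 35.1 CPM. Of all tested genes, 2.21% were higher in cluster c7 and 1.42% in cluster c20.

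In the 4 classes with the most Rgs20 in control the libraries were close. The ratio was 0.01 (-0.06 to 0.09) in radial glia-like, -0.06 (-0.10 to -0.02) in astrocyte-like, 0.06 (-0.07 to 0.19) in cycling progenitor-like and -0.04 (-0.16 to 0.09) in oligodendrocyte precursor-like nuclei. Among classes with lower levels it was 0.86 (0.75 to 0.97) in deep-layer excitatory-like, at 82.9 and 151 CPM, 0.20 (0.08 to 0.32) in subicular excitatory-like and 0.38 (0.19 to 0.57) in immature dentate granule-like nuclei. Clusters differed inside the first of these, with 1.07 in cluster c18 and 0.08 in cluster c21, and inside the subicular class, with 0.08 in cluster c12 and 1.38 in cluster c28. It was -0.15 (-0.33 to 0.02) in MGE inhibitory-like and -0.23 (-0.53 to 0.07) in CGE inhibitory-like nuclei. The MGE clusters went opposite ways, with -0.25 (-0.44 to -0.06) in cluster c9 and 1.27 (0.60 to 2.01) in cluster c25, from 26 and 60 UMIs. Microglia-like nuclei had 17 UMIs in control and 30 in KO. A cluster of 23 control nuclei and no KO nuclei, with raised microglia and astrocyte markers, was left unnamed; if it is counted as microglia-like, the log2 ratio of Rgs20 there is -1.97 in place of 1.11 and would be called lower. That rule was set after this value had been seen.

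**Figure D4:**
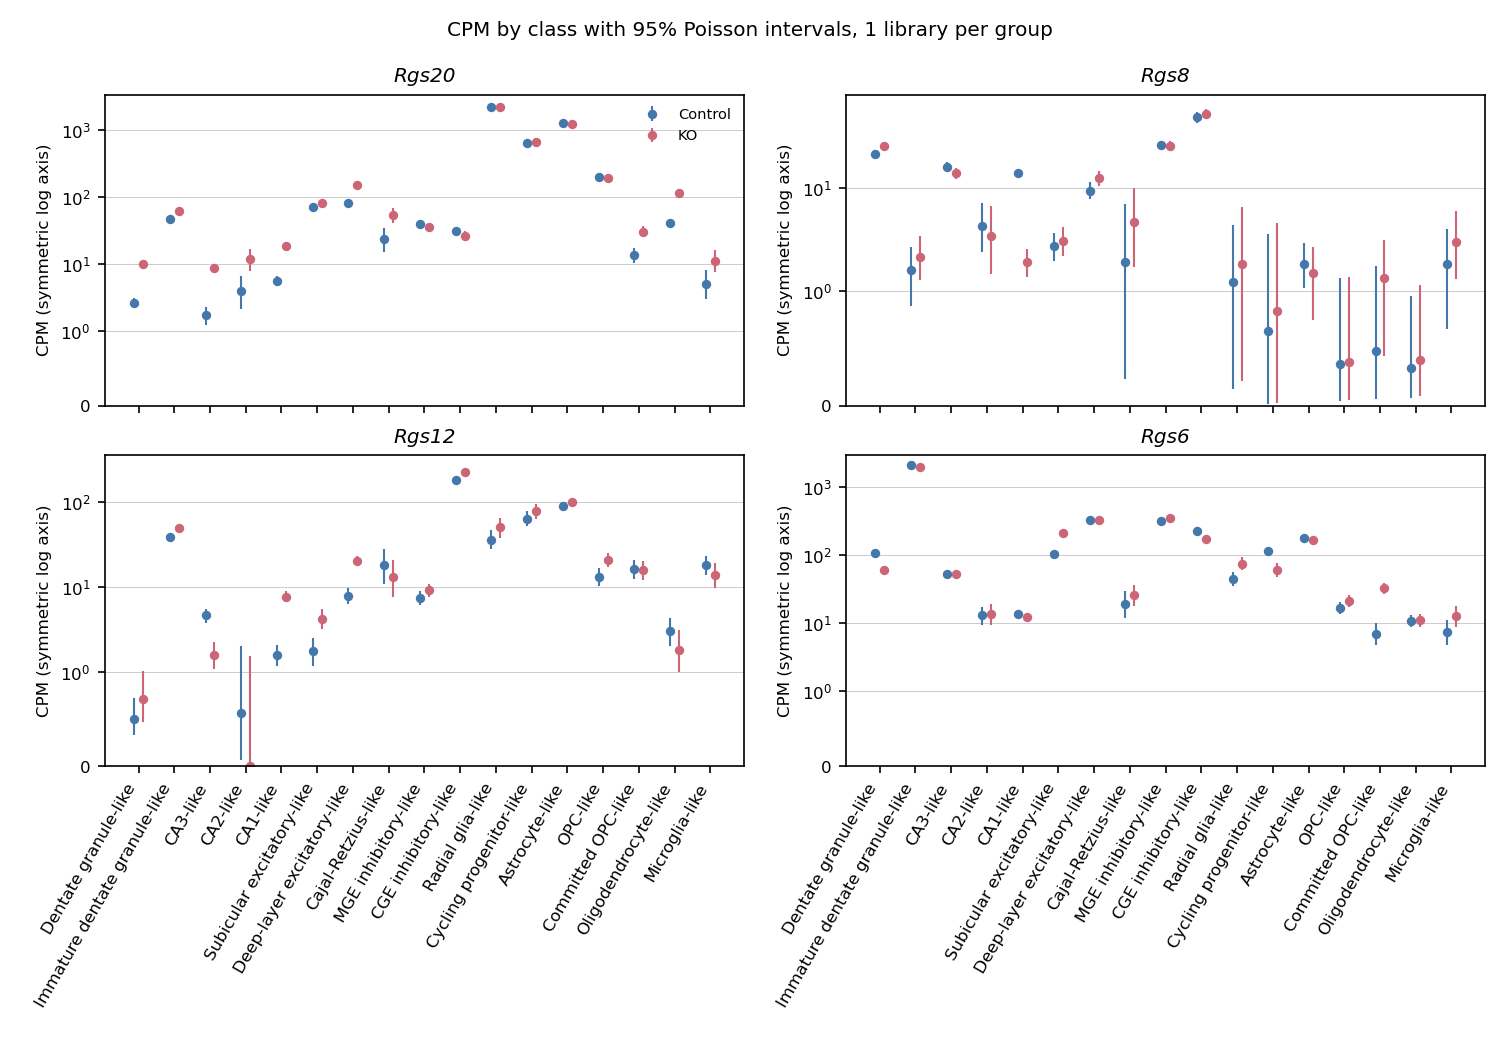
CPM of Rgs20, Rgs8, Rgs12 and Rgs6 in 17 classes (symmetric log axis, linear below 1 CPM), control in blue and KO in red, with exact 95% Poisson intervals from 1 library per group. For Rgs20 the points separate in CA1-, CA3-, granule- and oligodendrocyte-like nuclei and lie together in radial glia- and astrocyte-like nuclei, and for Rgs8 they separate in CA1-like nuclei.

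Per nucleus, a UMI of Rgs20 was found in 7.31% of control (6.12 to 8.64%) and 18.6% of KO (16.6 to 20.8%) CA1-like nuclei. In dentate granule-like nuclei the shares were 2.83% and 8.25%, in CA3-like nuclei 4.09% and 12.9%, and in oligodendrocyte-like nuclei 13.8% and 30.8%. In microglia-like nuclei they were 1.01% and 1.56%, while 95.9% and 96.1% of astrocyte-like nuclei had a UMI. After thinning to 2000 UMIs the shares were 0.986% and 3.09% in CA1-like and 4.62% and 14.7% in oligodendrocyte-like nuclei, against 0.484% and 1.16% in microglia-like nuclei.

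Astrocyte markers are given beside these values because astrocytes hold so much Rgs20. In CA1-like nuclei the 7 astrocyte markers summed to 30.7 CPM in control and 28.0 CPM in KO, with 2 of 7 higher. They summed to 1244 and 975 CPM in dentate granule-like, 233 and 177 CPM in Cajal-Retzius-like and 111 and 96.8 CPM in committed oligodendrocyte precursor-like nuclei. In CA3-like nuclei they summed to 33.5 and 49.5 CPM, with 2 of 7 higher, and in oligodendrocyte-like nuclei to 145 and 216 CPM, with 3 of 7 higher. The part of astrocyte RNA in the Rgs20 values was not tested in any of these 6 classes. Among these 6 classes an astrocyte marker was at 0 only in Cajal-Retzius-like nuclei, 1 of 7 in each library.

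Inside the oligodendrocyte-like class, Rgs20 was at 75.2 CPM in control and 131 CPM in KO in cluster c11, and at 5.41 and 9.49 CPM in cluster c13. The log2 ratios there were 0.80 and 0.85, under 2-fold, and the share of the class in cluster c11 differed between the libraries as given for Rgs7. In committed oligodendrocyte precursor-like nuclei cluster c17 was at 10.1 and 43.2 CPM and cluster c24 at 17.6 and 15.1 CPM, and the class ratio turned to -0.076 with called doublets kept. Female and male nuclei had the same sign in the 4 called classes. They gave 2.58 and 1.26 in CA1-like, 2.00 and 1.30 in oligodendrocyte-like, 2.28 and 0.97 in Cajal-Retzius-like and 0.76 and 1.83 in committed oligodendrocyte precursor-like nuclei.

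**Figure D5:**
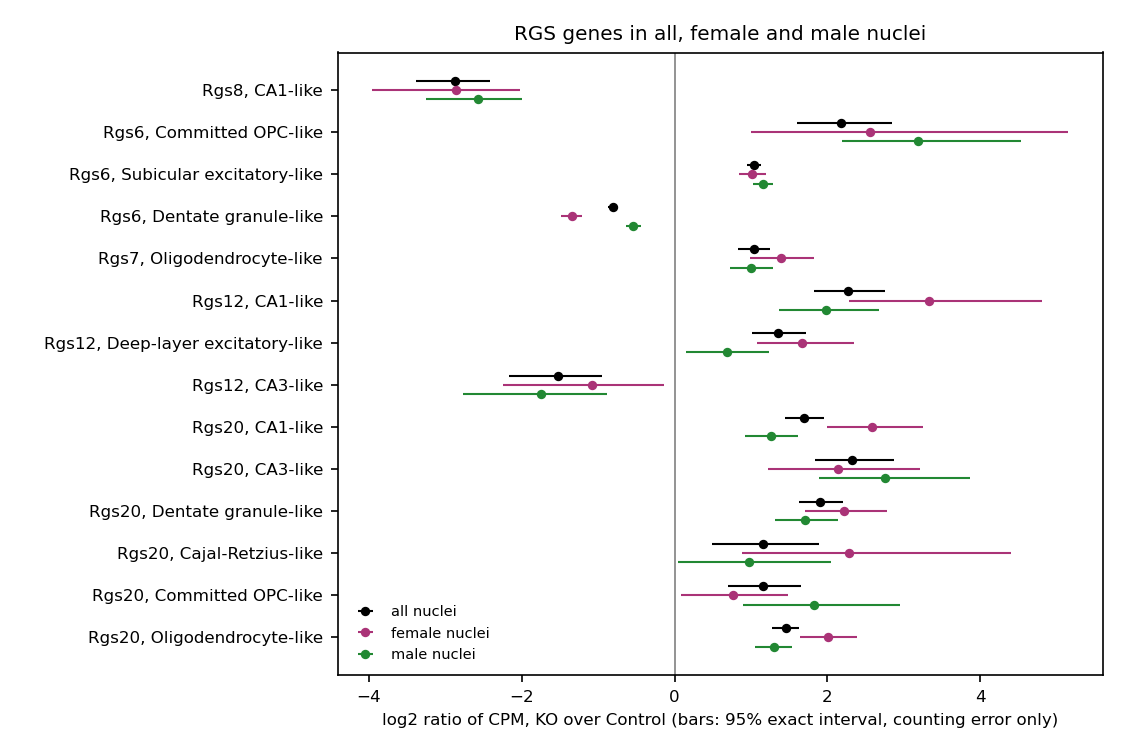
Log2 ratio of CPM, KO over control, in all, female and male nuclei of the pools for 14 pairs of an RGS gene and a class, with exact 95% intervals for counting error. The points of both sexes lie on the same side of 0 in all 14 pairs, and the spread between them is widest for Rgs12 and Rgs20 in CA1-like nuclei and Rgs20 in Cajal-Retzius-like nuclei.

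Rgs20 overlaps 2 counted genes on the other strand in the GENCODE annotation, Atp6v1h and Gm16041, and whether the counting used strand is not given in the sources used here. Atp6v1h, a subunit of the vacuolar proton pump, was at 110.4 CPM in control and 106 CPM in KO in CA1-like nuclei and at 116 and 127 CPM in oligodendrocyte-like nuclei. Gm16041 had 2 and 3 UMIs in CA1-like, 1 and 9 in oligodendrocyte-like and 2 and 15 in deep-layer excitatory-like nuclei. Rgs8 and Rgs12 each overlap 1 counted gene on the other strand, Gm29529 with 2 and 1 UMIs and Gm43791 with 0 UMIs in CA1-like nuclei. Rgs6 overlaps Gm29530 and 1700085C21Rik, and Rgs4, Rgs7, Rgs9, Rgs14 and Rgs17 overlap none in that annotation. Counted genes that the annotation lacks could not be found this way.

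For each member the 3 genes with the most similar profile were taken by Pearson's r of log2(CPM + 1) over 34 sums, 17 classes in 2 libraries, among 14150 genes. The sums share libraries and depth, so r is a description. Rgs7 was most like Fgf14 (0.94), Kcnd2 (0.91) and Shank3 (0.90), and Rgs8 most like Col25a1 (0.90), Lrrc3b (0.87) and Gm17276 (0.85). Rgs14 was most like Camta2 (0.89), Gm13849 (0.86) and Cracdl (0.86). Rgs20 was most like Gm16041 (0.89), Pcx (0.87) and Tex9 (0.86), and Rgs6 like Gm29530 (0.88), Lypd6b (0.77) and L3mbtl4 (0.76). Gm16041 and Gm29530 are the genes that overlap Rgs20 and Rgs6, so their reads may not be separable. Rgs9 was most like Ptk7 (0.85), Fam124a (0.82) and Nrg2 (0.80), and Rgs12 like Enho (0.82), Vegfb (0.81) and Cxcl14 (0.81). Rgs17 was most like Thrb (0.83), Fam110b (0.81) and Prr16 (0.80), and Rgs4 like Ift172 (0.83), Fosl2 (0.81) and Rec114 (0.80).

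Other genes of the pathway were taken from lists by role, drawn up with earlier results of these data known. The share of all tested genes at least 2-fold higher or lower was 0.138% and 0.106% in astrocyte-like, 0.215% and 0.124% in CGE inhibitory-like, 0.0229% and 0.0114% in MGE inhibitory-like, and 0.141% and 0.188% in microglia-like nuclei. It was 0.303% and 0.214% in cycling progenitor-like, 0.292% and 0.0521% in immature dentate granule-like, and 2.32% and 1.13% in CA2-like nuclei. It was 0.17% and 0.0426% in oligodendrocyte precursor-like and 0.499% and 0.364% in radial glia-like nuclei. The share lower was 0.133% in Cajal-Retzius-like, 1.1% in oligodendrocyte-like, 0.473% in CA3-like, 0.642% in subicular excitatory-like, 0.211% in deep-layer excitatory-like and 0.223% in committed oligodendrocyte precursor-like nuclei. Among unnamed clusters it was 0.551% in c7, 0.338% in c10 and 1.08% in c16. In cluster c26, where no member was called, 5.69% were higher and 10.8% lower. Over all genes and the 17 named classes together, 1.1% of pairs were higher and 0.408% lower. The 12 other Rgs genes gave 18 pairs that passed the minimums, and none met the size rule in either direction. These genes are what was left after the members were picked from this contrast, so nothing is read from that count. Rgs11, the remaining R7 member, was at 31.6 CPM in control and 18.3 CPM in KO in CA1-like nuclei, a log2 ratio of -0.79. Rgs10, the microglial member, was at 283 and 306 CPM in microglia-like nuclei. The 11 partners, among them Gnb5, the R7 anchor Rgs7bp and the receptor Gpr158, gave 84 pairs and no call. The 13 Gα genes gave 156 pairs with 0 higher and 1 lower, Gna12 in oligodendrocyte-like nuclei at 241 and 119 CPM. The 14 Gβ and Gγ genes gave 115 pairs with 2 higher and 1 lower. Gng4 was at 14.2 and 3.39 CPM in CA2-like and 4.95 and 21.8 CPM in subicular excitatory-like nuclei, and Gng7 at 6.35 and 14.9 CPM in deep-layer excitatory-like nuclei.

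The 30 receptors that couple to Gi gave 143 pairs with 6 higher and 4 lower. Grm8, a presynaptic glutamate receptor, was at 32.8 CPM in control and 11.9 CPM in KO in CA1-like nuclei and at 23.6 and 10.7 CPM in dentate granule-like nuclei. In Cajal-Retzius-like nuclei Grm8 was at 13.4 and 40.7 CPM and Grm7 at 158 and 503 CPM. Npy1r was at 6.59 and 14.6 CPM in CA1-like and 6.27 and 23.1 CPM in subicular excitatory-like nuclei. In the latter class Chrm2 was at 15.0 and 33.2 CPM. Grm3 was at 277 and 104 CPM in oligodendrocyte-like nuclei, Oprm1 at 7.57 and 22.2 CPM in microglia-like nuclei, and Oprd1 at 19.0 and 9.22 CPM in CGE inhibitory-like nuclei. The Oprm1 call rested on 25 control and 59 KO UMIs, and the gene was also called higher in unnamed clusters c7 and c22. Etv4 counts rose in KO outside granule nuclei too, among them 14 to 84 (microglia-like), 13 to 62 (CGE inhibitory-like) and 38 to 113 (MGE inhibitory-like). Etv5 counts in these classes went from 157 to 244, from 195 to 155 and from 436 to 313. Free RNA was not removed, and whether these Oprm1, Etv4 and Etv5 UMIs came from the named nuclei was not tested.

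The 14 receptors that couple to Gq gave 95 pairs with 8 higher and 3 lower. In dentate granule-like nuclei, where 2.26% of all tested genes were higher, the serotonin receptor Htr2c was at 4.32 CPM in control and 30.5 CPM in KO, the muscarinic receptor Chrm3 at 81.6 and 175 CPM, and Gpr139 at 4.43 and 14.5 CPM. Htr2c was also at 63.6 and 190.3 CPM in CA3-like nuclei, where 1.36% of genes were higher, and at 21.0 and 182 CPM in Cajal-Retzius-like nuclei. In oligodendrocyte-like nuclei Adra1b was at 1.41 and 24.2 CPM and Ednrb at 5.65 and 23.0 CPM. Chrm3 was lower in KO in CA2-like nuclei, at 868 and 338 CPM, and in cycling progenitor-like nuclei, at 67.9 and 25.5 CPM, and Htr2a was lower in CA2-like nuclei, at 17.9 and 2.96 CPM.

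The 15 effectors, adenylyl cyclases, phospholipase C β enzymes and G protein-gated potassium channels, gave 172 pairs with 2 higher and 3 lower. Adcy8 was higher in KO in CA3-like nuclei, at 9.94 CPM in control and 25.1 CPM in KO, and in subicular excitatory-like nuclei, at 106 and 230.4 CPM. Adcy2 was lower in CA2-like nuclei, at 192 and 94.9 CPM, Adcy1 in immature dentate granule-like nuclei, at 16.1 and 7.97 CPM, and Plcb4 in oligodendrocyte-like nuclei, at 55.8 and 27.0 CPM.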

How the data were processed

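Per the labels' protocols, nuclei from frozen hippocampus were purified on anti-nucleus beads and made into 10x GEM-X 3′ libraries, with 20000 nuclei aimed for per library. In the deposited matrices each value is an unnormalized UMI count of 1 gene in 1 barcode, made with Cell Ranger 8.0.1 on mm39, per the submitters' processing notes. The members and all gene and marker lists were chosen with earlier results of these data known. The text names all 9 members, and of the other lists every gene past the size rule in a named class except 1 result that is not reported here.

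Nuclei with fewer than 500 genes or over 5% mitochondrial UMIs were left out (847 control, 164 KO), then Scrublet doublets (3223, 12.9%, and 2514, 10.9%). Libraries were clustered together with scanpy 1.11.5 (3000 variable genes, 30 components, 15 neighbours, Leiden resolution 1, leidenalg 0.10.2). Clusters were named from 24 marker sets, none with an Rgs gene, by the highest mean log2 fold, with at least 3 markers raised. The minimum mean log2 fold of 1, set after the clusters were seen, kept 3 clusters unnamed with 4.49% of control and 4.72% of KO nuclei. The rule leaving clusters of 1 library unnamed was also set after seeing the data. Unnamed nuclei made up 12.7% and 14.7%.

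UMIs were summed per class and library, and 0.5 UMI was added to each sum for ratios. No unit other than the deposited counts was used.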

Additional observations from a re-analysis of the deposited data

Results flagged for a closer look

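Rgs12 lay on opposite sides of 0 in different classes, each with a counting interval that left out 0 and at least 2-fold. It was higher in KO in CA1-like (log2 ratio 2.27), deep-layer excitatory-like (1.36) and subicular excitatory-like nuclei (1.27), and lower in CA3-like nuclei (-1.52). Of these 4 classes only the deep-layer class reached 10 CPM in either library. The difference between classes was not tested, because there is 1 library per group.

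Rgs9 also lay on opposite sides of 0, from small sums. It was at 33 UMIs in control and 60 in KO in CA3-like nuclei (log2 ratio 1.16), and at 19 and 7 UMIs in Cajal-Retzius-like nuclei (-1.69). This difference was not tested either.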

How the results depend on the processing

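No paired analysis was possible because each genotype is 1 pooled library. Shares of all tested pairs of a gene and a class, higher and lower, stand in parentheses. The 8 higher and 1 lower RGS calls became 3 and 1 with called doublets kept (0.917% and 0.502%) and 5 and 1 after thinning to 2000 UMIs (1.11% and 0.515%). They became 15 and 4 at 1.5-fold (3.49% and 1.87%), and 16 and 2 with 20 UMIs and no CPM minimum (2.03% and 1.26%). Female nuclei gave 6 and 2 (2.24% and 0.746%) and male nuclei 6 and 3 (1.09% and 0.588%). At a Leiden resolution of 2 there were 6 and 1 (1.1% and 0.42%), with Rgs20 in committed oligodendrocyte precursor-like nuclei at 0.96 and Rgs7 in oligodendrocyte-like nuclei at 0.80. With clusters of 1 library kept under their marker name, an alternative chosen after seeing the data, there were 8 and 2 (1.09% and 0.477%). Rgs8 in CA1-like nuclei was among the lower calls in each of these. The related lists, with 18 higher and 12 lower, gave 36 and 42 at 1.5-fold. With doublets kept, the log2 ratio of Rgs20 in committed oligodendrocyte precursor-like nuclei reversed to -0.076 and that of Rgs7 in oligodendrocyte-like nuclei to -0.18; the cause was not tested. The other 7 called pairs kept their sign under every alternative run that gave them a ratio. Rgs8 in CA1-like nuclei ranged from -3.11 to -2.34, Rgs20 from 0.79 to 2.58 in CA1-like, 0.90 to 2.00 in oligodendrocyte-like and 0.58 to 2.28 in Cajal-Retzius-like nuclei, Rgs12 in deep-layer excitatory-like nuclei from 0.69 to 1.67, Rgs6 in committed oligodendrocyte precursor-like nuclei from 0.77 to 3.18, and Rgs6 in subicular excitatory-like nuclei from 0.43 to 1.16. Median-of-ratios scaling moved log2 ratios by -0.13 in CA2-like, -0.10 in CA1-like and 0.08 in oligodendrocyte-like nuclei. It left 7 higher and 1 lower calls (0.977% and 0.475%), with Rgs6 in subicular excitatory-like nuclei at 0.96. Clustering without the changed genes and the Rgs genes gave no CA2-like class, so no value there.

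With 1 pool per genotype, a difference between the mice of the pools cannot be told apart from genotype. Members under 10 CPM rest on few UMIs per nucleus, and free RNA was not removed. The mitochondrial share of UMIs was higher in KO in every named class, for example 0.0179% in control and 0.0317% in KO in CA1-like nuclei. In oligodendrocyte-like nuclei it was 0.0494% and 0.0692%. Its part in the results was not tested.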
